A study of Mus musculus with 12 samples.

Results

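The genes described here take up glutamate, turn it into glutamine and feed both into cell metabolism. They are 8 of the 50600 genes in the deposited counts and were chosen by name: the glutamate transporters Slc1a3 and Slc1a2, the neutral amino acid transporter Slc1a4, the glutamine transporter Slc38a3, glutamine synthetase (Glul), glutamate dehydrogenase (Glud1) and the aspartate aminotransferases Got1 and Got2. The choice was made with earlier results of these data known. All 8 were found and all 8 passed the count filter in each comparison. In brain tissue, astrocytes clear the glutamate released at synapses through the products of Slc1a2 (GLT-1) and Slc1a3 (GLAST). Glul then converts glutamate to glutamine in the same cells, and glutamine that leaves them, in part through the product of Slc38a3, can be taken up by neurons. Glud1, Got1 and Got2 connect glutamate to the citric acid cycle, and GLAST is also found on the radial glia-like stem cells of the adult hippocampus.

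The cells came from the dentate gyrus, the part of the hippocampus that makes neurons in adult life, of Nestin-GFP mice aged 6 to 9 weeks. In these mice, regulatory sequence of the Nestin gene drives green fluorescent protein, which marks stem and progenitor cells. Live cells without CD31, CD45, O1 and O4 on their surface were sorted. The groups were then set by 2 signals, the reporter and surface GLAST. Astrocytes carried GLAST without the reporter, progenitors carried the reporter without GLAST, and stem cells carried both. All 3 groups share the mouse line, and the study describes no experimental treatment. The mice were anesthetized with ketamine and xylazine and then perfused. Each cell type has 4 libraries, each of 50 cells, which the study treats as biological replicates. Slc1a3 encodes the sorted antigen, and its level between groups that differ in GLAST staining is therefore tied to the sort.

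The sequences upstream of the 3 members with the highest levels are shown because these genes were lower in progenitors than in stem cells together. Each line holds the 250 bases before the transcription start site listed by RefSeq (assembly GRCm38.p6), 5′ to 3′ on the gene's strand. Capitals mark every match to 3 common promoter motifs on either strand. The first is CCAAT, a box found upstream of many genes, which reads ATTGG when it lies on the other strand. The second is the GC box GGGCGG, and its reverse form is CCGCCC, the letters bound by factors such as Sp1. The third is the TATA box, searched as TATAAA and in reverse as TTTATA here. No motif overlapped another one in these 3 windows. Slc1a2 is at chr2:102706188-102706437 on the plus strand, Slc1a3 at chr15:8710808-8711057 on the minus strand and Glul at chr1:153899679-153899928 on the plus strand.
Slc1a2: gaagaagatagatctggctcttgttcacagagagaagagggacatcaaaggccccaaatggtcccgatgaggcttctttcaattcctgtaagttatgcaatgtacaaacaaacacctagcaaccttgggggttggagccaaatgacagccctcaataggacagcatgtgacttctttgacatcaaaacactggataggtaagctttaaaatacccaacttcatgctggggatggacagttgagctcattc
Slc1a3: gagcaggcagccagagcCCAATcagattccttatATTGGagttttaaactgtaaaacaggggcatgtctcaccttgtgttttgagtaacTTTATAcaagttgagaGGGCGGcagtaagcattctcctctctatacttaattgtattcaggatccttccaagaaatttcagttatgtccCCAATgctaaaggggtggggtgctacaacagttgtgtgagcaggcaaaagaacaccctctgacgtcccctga
Glul: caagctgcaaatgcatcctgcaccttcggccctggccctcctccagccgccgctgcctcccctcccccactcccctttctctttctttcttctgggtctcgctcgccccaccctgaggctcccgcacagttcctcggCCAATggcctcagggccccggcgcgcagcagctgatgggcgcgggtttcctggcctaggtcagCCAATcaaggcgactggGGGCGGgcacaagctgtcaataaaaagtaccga
The Slc1a3 window held 3 CCAAT matches, 1 GGGCGG match and 1 TATAAA match. The Glul window held 2 CCAAT matches and 1 GGGCGG match, and the Slc1a2 window held none of the 3 motifs. The Slc1a2 window lies inside the gene as GENCODE draws it, so it precedes one of several annotated starts. Of all 32851 windows of this length in the RefSeq table, 33.9% held CCAAT, 32.7% held GGGCGG and 12.4% held TATAAA. GC content was 44.8% in both transporter windows and 64.8% in that of Glul, and highest among the 7 members that matched for Glud1, at 82%. A match describes the letters only. Slc38a3 had no entry in the table.

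Total counts on genes ranged from 5031166 to 12535028 per library, and every progenitor library was deeper than every astrocyte library. Levels are given as CPM, the count of a gene scaled to a library of 1000000 counts, with TMM factors over the 12 libraries, and 3 counts correspond to between 0.206 and 0.639 CPM. No molecular identifiers are described, so a floor of this kind covers counting error only. Astrocyte markers (10 genes) summed to between 9112 and 13736 CPM in astrocytes, 5056 and 6513 in progenitors, and 16162 and 22361 in stem cells, with all 10 genes counted in every library. Oligodendrocyte precursor markers (8 genes) summed to between 2143 and 3571 CPM in progenitors, against 43.5 to 321 in astrocytes and 64.3 to 145 in stem cells, where Bmp4 was at 0 in both. Neuronal progenitor markers (8 genes) summed to between 666 and 1510 CPM in progenitors, at most 225 in astrocytes, with Eomes, Neurod4 and Igfbpl1 at 0, and at most 54.2 in stem cells, with Neurod4 and Neurog2 at 0. Mural cell markers (8 genes) ranged from 57.8 to 2633 CPM among progenitors and reached at most 214 elsewhere. The RNA of the GFP-positive, GLAST-negative gate thus held markers of several cell types. Neuron markers (8 genes) summed to between 657 and 5373 CPM in astrocytes, 306 and 440 in progenitors, and 262 and 480 in stem cells. Every astrocyte library thus lay above every progenitor and stem cell library, and Camk2a had the highest astrocyte mean of these genes. Astrocyte library a stood apart from the other astrocyte libraries, with 5373 CPM of neuron markers against 657 to 1930 in the other 3. Its oligodendrocyte markers (8 genes) summed to 3205 CPM against 337 to 1380. It also had the fewest genes with at least 10 counts, 9430 against 11024 to 11655. In such bulk samples, fewer cells of a type and less RNA per cell cannot be told apart.

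Together, the 8 members took more of the counts in stem cells than in the other cell types. Their share was 1.49% to 1.80% in stem cells, 0.941% to 1.39% in astrocytes and 0.615% to 0.802% in progenitors, and these ranges did not overlap. Slc1a3, Slc1a2 and Glul made up most of it. Levels of different genes were compared per kilobase of exon. On this scale the 3 genes with the highest level were the same in every cell type, and Got2 was the lowest. Near-identical copies elsewhere cover 72.5% of the Got2 transcript, and their part in its low place was not tested. In stem cells the mean CPM per kilobase was 927 ± 154 (SD, n = 4) for Slc1a3, 670 ± 70.6 (SD, n = 4) for Glul and 456 ± 36.1 (SD, n = 4) for Slc1a2, and each of them exceeded the next one in every library's value. Slc38a3 (93.0 ± 43.0), Glud1 (70.5 ± 8.41) and Slc1a4 (57.3 ± 20) followed, and these 3 overlapped with their neighbours in the order. Got1 (17.5 ± 8.29) and Got2 (2.15 ± 1.53) stood below them without overlap. In astrocytes, Glul (559 ± 196), Slc1a3 (546 ± 124) and Slc1a2 (430 ± 23.1) could not be ordered, since their libraries overlapped, and all libraries of the 3 genes lay above those of Glud1 (95 ± 25.3). The astrocyte levels of Slc38a3 (60.6 ± 32.3), Got1 (23.8 ± 27.2), Slc1a4 (20.3 ± 17.8) and Got2 (2.88 ± 2.79) each overlapped with the next gene. In progenitors the order was Slc1a3 (326 ± 67.9), Glul (237 ± 51.9), Slc1a2 (151 ± 22.3), Slc38a3 (50.7 ± 10.1), Glud1 (31.6 ± 9.13), Slc1a4 (21.5 ± 8.87), Got1 (14.8 ± 6.55) and Got2 (4.69 ± 2.62). Here Slc1a3 and Glul overlapped, as did Glud1 with Slc1a4 and Slc1a4 with Got1, while the other neighbours were apart. The exons of Slc1a3 span 8537 bases in all and its longest transcript 4435, and per kilobase of that transcript its level was 1785 in stem cells, 1052 in astrocytes and 627 in progenitors. The order and overlaps given above use all exon bases and depend on this choice of length.

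**Figure D1:**
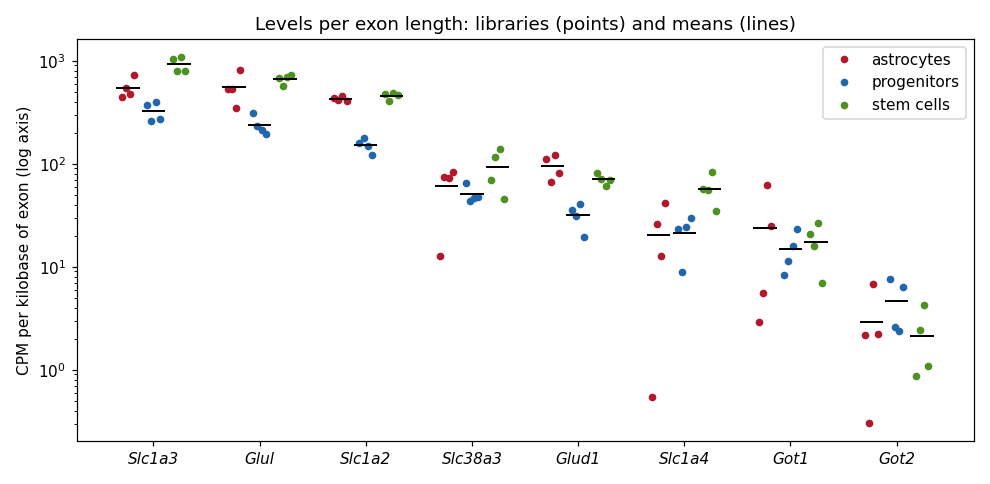
CPM per kilobase of exon (vertical axis, logarithmic) for the 8 members in the order of their level in stem cells, with 1 point per library, a line at the mean of 4 libraries and colours for the cell types. Slc1a3, Glul and Slc1a2 lie highest in every cell type, from 151 to 927 on average, and Got2 lies lowest.

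Slc1a3 (chr15:8634124-8710764, minus strand, GRCm38) was highest in stem cells and lowest in progenitors. It was found at 8844, 6802, 9249 and 6768 CPM in stem cell libraries 1 to 4. Astrocyte libraries a to d had 3797, 4656, 4045 and 6158 CPM, and progenitor libraries a to d had 3146, 2235, 3403 and 2346 CPM. The libraries of the 3 cell types did not overlap for this gene on this scale. Without TMM factors, astrocyte library a (3019 CPM) lay below progenitor library c (4073 CPM). Progenitors were 2.92-fold below stem cells, a log2 fold change of -1.54 ± 0.18 (SE) that passed the threshold (edgeR's quasi-likelihood test, Benjamini-Hochberg adjusted p = 0.0012). Astrocytes exceeded progenitors by a log2 fold change of 0.74 ± 0.21, which did not pass (edgeR, adjusted p = 0.054), although without astrocyte library a it was 0.85 and did (edgeR, adjusted p = 0.033), as it did with DESeq2-type size factors, with all 12 libraries in one fit and after thinning to the smallest library (edgeR, adjusted p between 0.023 and 0.041). On library totals without TMM factors this difference was 0.29 (edgeR, adjusted p = 0.57), where the median of all genes moved from 0.03 to -0.43. Among the 4000 highest genes of every library the difference was 0.19 (edgeR, adjusted p = 0.61). Nor did it pass with DESeq2 (adjusted p = 0.12), without a count filter (edgeR, adjusted p = 0.076) or with at least 10 counts in every library (edgeR, adjusted p = 0.36). In all, it was called in 3 of 8 other settings and in 1 of 8 fits with 1 library left out. Astrocytes were below stem cells by a log2 fold change of -0.77 ± 0.19, which did not pass either (edgeR, adjusted p = 0.11) except with all 12 libraries in one fit (edgeR, adjusted p = 0.044) and among the 4000 highest genes (edgeR, adjusted p = 0.018). In the GLAST-negative progenitors, Slc1a3 still stood at place 65 among all genes by mean CPM per kilobase.

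Slc1a2 (chr2:102658659-102790784, plus strand) did not follow Slc1a3 in every respect. Its level was 5736, 5464, 6023 and 5340 CPM in astrocytes, 2067, 2311, 1948 and 1606 CPM in progenitors, and 6256, 5299, 6336 and 6075 CPM in stem cells. All progenitor libraries were below all other libraries, whereas astrocytes and stem cells overlapped. The spread between libraries was small, with a coefficient of variation of 5.38% in astrocytes and 7.92% in stem cells. Astrocytes were 2.84-fold above progenitors, with a log2 fold change of 1.51 ± 0.15 (edgeR's quasi-likelihood test, Benjamini-Hochberg adjusted p = 0.000963). Progenitors were 3.10-fold below stem cells, with a log2 fold change of -1.63 ± 0.14 (edgeR, adjusted p = 0.000267). Astrocytes differed from stem cells by -0.09 ± 0.13 on the log2 scale (edgeR, adjusted p = 0.90). These comparisons share libraries, each cell type being used in 2 of them. An antisense gene, Gm13872, overlaps 1.44% of the exon bases of Slc1a2 and had 1125 to 3695 counts, and without strand the reads of this stretch cannot be told apart.

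**Figure D2:**
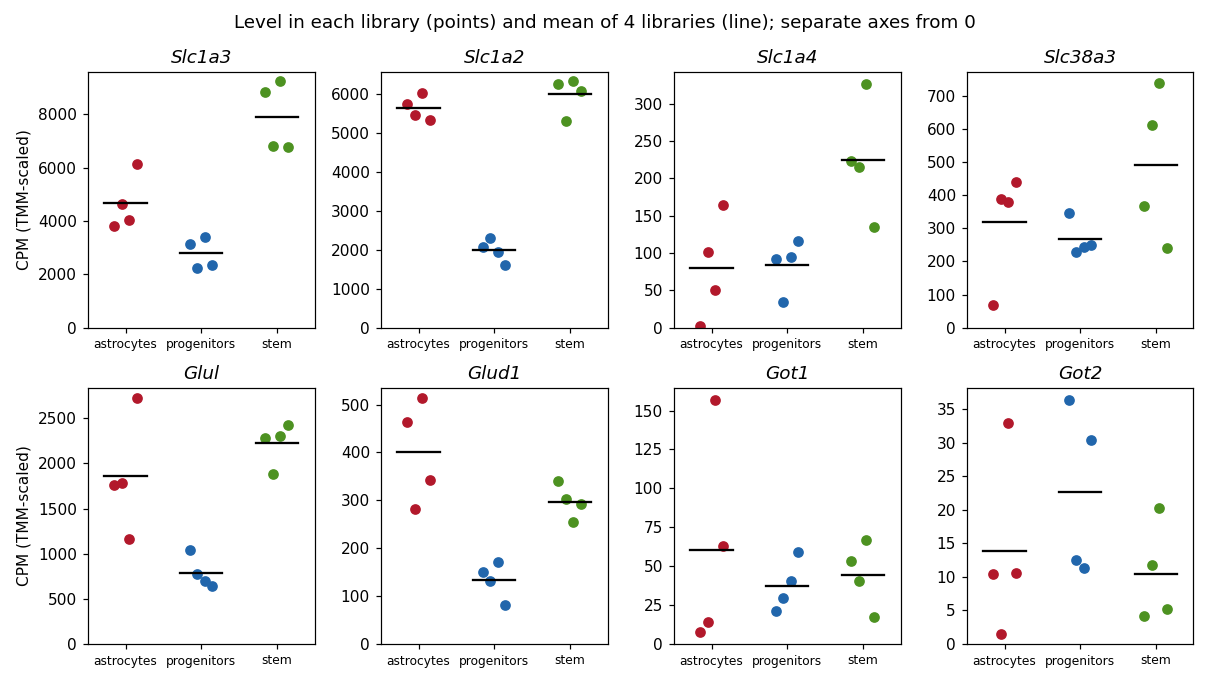
CPM (TMM-scaled, linear axes from 0, 1 scale per gene) of the 8 members in each library (points) of astrocytes, progenitors and stem cells, with a line at the mean of 4 libraries. Slc1a2, Glul and Glud1 show all progenitor libraries below all other libraries, Slc1a3 separates all 3 cell types, and Got1 and Got2 overlap throughout.

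Glul (chr1:153899944-153909723, plus strand), the enzyme that makes glutamine from glutamate and ammonia, was lowest in progenitors. It was found at 1757, 1781, 1157 and 2731 CPM in astrocytes, 1035, 769, 700 and 646 CPM in progenitors, and 2284, 1888, 2305 and 2428 CPM in stem cells. Every progenitor library was below every other library, and astrocytes and stem cells overlapped. Without TMM factors, however, astrocyte library c (998 CPM) lay below progenitor library a (1204 CPM). Progenitors were 2.90-fold below stem cells, with a log2 fold change of -1.54 ± 0.18 (edgeR's quasi-likelihood test, Benjamini-Hochberg adjusted p = 0.0012). Astrocytes were 2.35-fold above progenitors, with a log2 fold change of 1.23 ± 0.28 (edgeR, adjusted p = 0.021). That call was lost without progenitor library b, c or d (edgeR, adjusted p between 0.060 and 0.071) and on library totals without TMM factors (log2 fold change 0.78, edgeR, adjusted p = 0.16, where the median of all genes was -0.43). It was also lost with at least 10 counts asked of every library (0.88, edgeR, adjusted p = 0.10) and among the 4000 highest genes of every library (0.69, edgeR, adjusted p = 0.095). Astrocytes and stem cells differed by a log2 fold change of -0.27 ± 0.25, which did not pass (edgeR, adjusted p = 0.82). Of the Glul transcript, 44.3% has a near-identical copy elsewhere, mainly in the pseudogene Glns-ps1, which had 11 to 114 counts.

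Glud1 (chr14:34310727-34345265, plus strand), which converts glutamate to 2-oxoglutarate in mitochondria, was also lowest in progenitors. Its level was 463, 281, 513 and 343 CPM in astrocytes, 150, 131, 171 and 81.0 CPM in progenitors, and 340, 302, 254 and 291 CPM in stem cells. Progenitors again did not overlap with either other cell type, and astrocytes and stem cells overlapped. Astrocytes were 3.0-fold above progenitors, with a log2 fold change of 1.59 ± 0.36 (edgeR's quasi-likelihood test, Benjamini-Hochberg adjusted p = 0.020). This call was lost when any 1 of the progenitor libraries was left out, with an adjusted p between 0.050 and 0.063 (edgeR), and likewise on library totals without TMM factors, without a count filter and with at least 10 counts in every library (edgeR, adjusted p between 0.062 and 0.093). Progenitors were 2.29-fold below stem cells, with a log2 fold change of -1.19 ± 0.24 (edgeR, adjusted p = 0.013), which missed the threshold with all 12 libraries in one fit (edgeR, adjusted p = 0.052). Astrocytes and stem cells differed by 0.42 ± 0.31 on the log2 scale (edgeR, adjusted p = 0.75). Copies in Glud-ps and Gm43444 cover 27.8% of the transcript, and these had at most 15 and 23 counts.

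Slc1a4 (chr11:20302180-20332713, minus strand), which encodes ASCT1, a carrier of alanine, serine, cysteine and other neutral amino acids and not of glutamate, was highest in stem cells. Stem cell libraries had 223, 216, 327 and 135 CPM and progenitors had 91.8, 34.5, 95.1 and 116 CPM, without overlap. Astrocytes had 2.13, 101, 50.4 and 165 CPM, the first value being 10 counts in library a, and they overlapped with both. Progenitors were 2.73-fold below stem cells, with a log2 fold change of -1.45 ± 0.38 (edgeR's quasi-likelihood test, Benjamini-Hochberg adjusted p = 0.044). With 1 library left out, this call was kept in 1 of 8 fits and otherwise had an adjusted p of up to 0.098 (edgeR). It was also lost without TMM factors (edgeR, adjusted p = 0.094), without a count filter (0.057) and with all 12 libraries in one fit (0.68). Astrocytes differed from progenitors by a log2 fold change of -0.07 ± 0.94 and from stem cells by -1.50 ± 0.87, and neither passed (edgeR, adjusted p = 0.98 and 0.67). Without astrocyte library a the values were 0.33 and -1.11 (edgeR, adjusted p = 0.77 and 0.38).

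Slc38a3 (chr9:107650634-107669530, minus strand), which encodes the glutamine transporter SNAT3, was not called in any comparison. It was found at 67.3, 390, 382 and 441 CPM in astrocytes, 347, 230, 243 and 251 CPM in progenitors, and 370, 613, 741 and 241 CPM in stem cells. Astrocyte library a was the lowest of all 12, and the cell types overlapped. Progenitors against stem cells had a log2 fold change of -0.91 ± 0.32, which did not pass (edgeR's quasi-likelihood test, Benjamini-Hochberg adjusted p = 0.13). Without stem cell library 4 it was -1.13 and passed (edgeR, adjusted p = 0.035). Astrocytes differed from progenitors by 0.27 ± 0.51 and from stem cells by -0.62 ± 0.54 on the log2 scale (edgeR, adjusted p = 0.85 and 0.81). Without astrocyte library a these differences were 0.61 and -0.29 (edgeR, adjusted p = 0.14 and 0.83).

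Got1 (chr19:43499752-43524605, minus strand) and Got2 (chr8:95864134-95888547, minus strand) encode the cytosolic and the mitochondrial aspartate aminotransferase, which exchange the amino group of aspartate and glutamate and work in the malate-aspartate shuttle. Got1 was found at 7.46, 14.3, 157 and 63.1 CPM in astrocytes, 20.9, 29.2, 40.5 and 59.3 CPM in progenitors, and 53.3, 40.3, 66.9 and 17.5 CPM in stem cells. Got2 was found at 10.4, 1.46, 33.0 and 10.6 CPM in astrocytes, 36.4, 12.5, 11.4 and 30.4 CPM in progenitors, and 4.21, 11.7, 20.3 and 5.20 CPM in stem cells. All cell types overlapped for both genes, and the coefficient of variation in astrocytes was 114% for Got1 and 96.9% for Got2. The log2 fold changes of Got1 were 0.71 ± 0.94 for astrocytes over progenitors, -0.28 ± 0.47 for progenitors over stem cells and 0.45 ± 0.95 for astrocytes over stem cells. Those of Got2 were -0.70 ± 1.04, 1.10 ± 0.69 and 0.42 ± 1.21 in the same order. None passed (edgeR's quasi-likelihood test, lowest Benjamini-Hochberg adjusted p = 0.43). Of the Got2 transcript, 72.5% has a copy of at least 95% identity, mainly in Gm10874 and Got2-ps1. In progenitor library a these had 120 and 89 counts beside 531 for Got2, while in astrocytes both were at 0 in all 4 libraries.

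Counted over the members, 3 of 8 were called in astrocytes against progenitors (Slc1a2, Glul and Glud1), all higher in astrocytes. Over all 14806 genes tested, 8.63% were called, 2.45% as higher in astrocytes and 6.18% as lower. On TMM-scaled values the libraries did not overlap for 4 of the 8 members, all higher in astrocytes, against 21% of all genes in either direction. Without TMM factors, Slc1a3 and Glul did overlap, and the share of all genes on that scale was not computed. The median log2 fold change was 0.73 for the members and 0.03 for all genes. In progenitors against stem cells, 5 of 8 members were called (Slc1a2, Slc1a3, Slc1a4, Glul and Glud1), all lower in progenitors, and the libraries of these 5 did not overlap. Slc1a3 encodes the sorted antigen, so its part in the counts of both comparisons with progenitors is tied to the sort. Because the members were chosen with earlier results known, setting their counts beside all genes is not an independent test. There 8.60% of 15427 genes were called, 4.95% as higher in progenitors and 3.66% as lower, and 19.3% did not overlap. The median was -1.32 for the members and 0.04 for all genes. In astrocytes against stem cells, edgeR's quasi-likelihood test and DESeq2 both called 0 of 8 members, and 1 member, Slc1a3, had an unadjusted p below the threshold in edgeR. Over all genes, edgeR called 0.0468% of 12831 in this comparison, or 6 genes, while DESeq2 called 635 of 12116. With edgeR, 343 genes were called with all 12 libraries in one fit and 197 of 1191 among the 4000 highest genes of every library. In addition, 9.97% of the genes did not overlap against 1 of 8 members (Slc1a3). The members' median was -0.18 and that of all genes 0.14. The lower calls in progenitors go with the marker sums given above, in which astrocyte markers were lowest and oligodendrocyte precursor and neuronal progenitor markers highest in every progenitor library, and the part of these in the result was not tested.

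**Figure D3:**
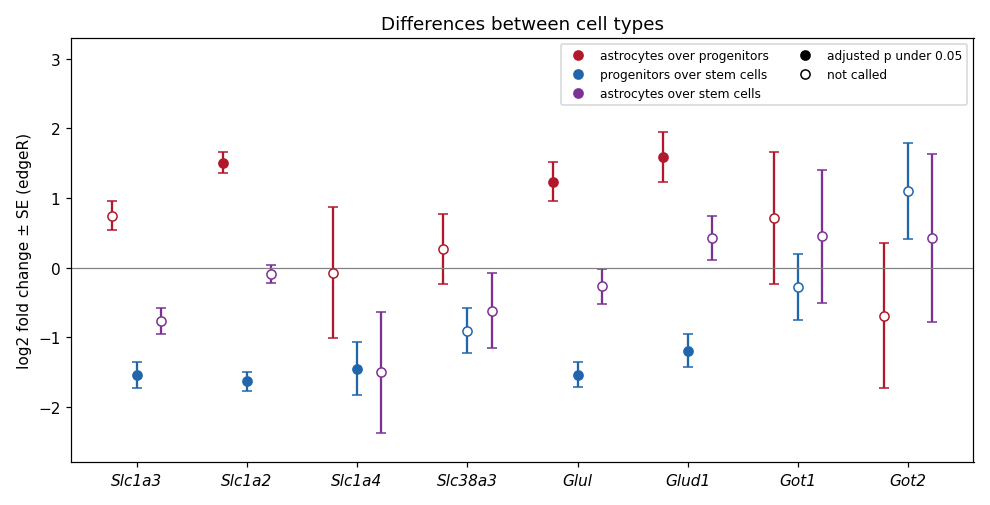
edgeR log2 fold change ± SE (vertical axis) of the 8 members in the 3 comparisons (colours), each on 4 against 4 libraries, with filled points for an adjusted p under 0.05. The called members are above 0 for astrocytes over progenitors and below 0 for progenitors over stem cells, and no member is called for astrocytes over stem cells.

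Ratios of counts within a library do not depend on its scaling. The log2 ratio of Slc1a2 to Slc1a3 was 0.59, 0.23, 0.57 and -0.21 in astrocytes, -0.61, 0.05, -0.80 and -0.55 in progenitors, and -0.50, -0.36, -0.55 and -0.16 in stem cells. In 3 of 4 astrocyte libraries Slc1a2 had more counts than Slc1a3, and in all 4 stem cell libraries it had fewer. The astrocyte mean exceeded that of progenitors by 0.78 and that of stem cells by 0.69 (two-sided exact permutation tests, p = 0.057 for both, adjusted p = 0.13 over the 9 ratio tests run). Progenitors and stem cells differed by -0.09 (exact permutation test, p = 0.66, adjusted p = 0.74). The log2 ratio of Got1 to Got2 averaged 1.88 ± 1.63 (SD, n = 4) in astrocytes, 0.81 ± 1.13 in progenitors and 2.22 ± 0.95 in stem cells. Its difference was 1.08 between astrocytes and progenitors, -1.41 between progenitors and stem cells, and -0.33 between astrocytes and stem cells. The libraries overlapped in each of these comparisons (exact permutation tests, adjusted p between 0.17 and 0.86). None of these ratio tests passed after adjustment. With 4 against 4 libraries, the smallest p that this two-sided exact permutation test can give is 0.0286. A single test could therefore not pass after adjustment over 9, and these tests cannot show that the ratios are alike.

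**Figure D4:**
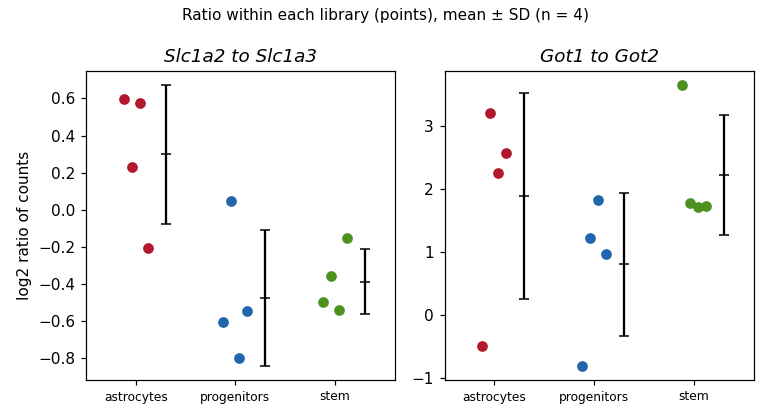
log2 ratio of counts of 2 genes in each library (points) and mean ± SD of 4 libraries (bars) for Slc1a2 to Slc1a3 and Got1 to Got2. For Slc1a2 to Slc1a3, 3 of 4 astrocyte libraries lie above 0 and all 4 stem cell libraries below it, and for Got1 to Got2 the cell types overlap.

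The members differed in how closely they moved together over the 12 libraries. Likeness was measured as the root mean square difference of log2(CPM + 1) after centring each gene, over 16062 genes. The values describe these libraries and rest on 3 cell types that share depth and preparation. Slc1a2, Slc1a3 and Glul formed the closest group among the members, at 0.34 between Slc1a3 and Glul, 0.35 between Slc1a2 and Glul, and 0.44 between the transporters. Glud1 was at 0.34 from Slc1a2. Many genes outside the members were nearer than these. Among all genes compared, Glul held place 25 for Slc1a3 and place 35 for Slc1a2, and Slc1a2 held place 119 for Slc1a3. The genes nearest to Slc1a3 were Tspan7 (0.17), Atp1b2 (0.20), a subunit of the sodium pump, and Gstm5 (0.22). Those nearest to Slc1a2 were Tmem47 (0.19) and Cmtm5 (0.21). Glul was nearest to Gstm1 (0.23), Fam107a (0.27) and Pla2g7 (0.28), and Glud1 to Nebl (0.25), Dtna (0.27) and Ahcyl1 (0.28). The other 4 members had no gene as near. Slc38a3 was at 0.32 from Jam2, 0.35 from Ntrk2 and 0.36 from Cyc1, and Slc1a4 at 0.44 from Idh1, 0.47 from Psph and 0.48 from Fdft1. Got1 was nearest to Zfp131 (0.44) and then to Gm38162 and Gss, and Got2 to Sept11 (0.59), Hsp90aa1 and Atp6v1b2.

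A list of 37 other genes of glutamate and glutamine handling was examined by role. Of 30 tested in astrocytes against progenitors, 4 were called, all lower in astrocytes, beside 6.18% of all genes called lower there. Among these, Slc1a1, Bcat1 and Gclc had fewer than 10 counts in every astrocyte library. They passed the count filter only through progenitors, so the direction of a call was largely set by the filter. Of 29 tested in progenitors against stem cells, 3 were called higher in progenitors and 6 lower, beside 4.95% and 3.66% of all genes. Of 24 tested in astrocytes against stem cells, 0 were called by edgeR's quasi-likelihood test, 2 had an unadjusted p under 0.05, and DESeq2 called 1 (Gclc). Their median log2 fold changes were -0.18, -0.67 and -0.52 in this order. Unlike the members, the list had calls in both directions between progenitors and stem cells.

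Among transporters at the plasma membrane, Slc1a1, which encodes the glutamate transporter EAAC1 of neurons and some glial precursors, was found mainly in progenitors. It had 92.7, 87.4, 166 and 103 CPM there, at most 1.46 CPM in astrocytes and at most 9.51 CPM in stem cells. Astrocytes were lower by a log2 fold change of -7.14 ± 0.81 (edgeR's quasi-likelihood test, Benjamini-Hochberg adjusted p = 0.0020) and progenitors exceeded stem cells by 4.73 ± 0.91 (edgeR, adjusted p = 0.011). Of its exon bases, 31.9% overlap 4430402I18Rik on the opposite strand, whose reads cannot be told apart from it there. Slc7a11, the cystine-glutamate exchanger, was lower in progenitors (89.1, 109, 50.9 and 97.4 CPM) than in stem cells (261, 230, 246 and 158 CPM), with a log2 fold change of -1.41 ± 0.27 (edgeR, adjusted p = 0.010). Slc38a1 and Slc38a2 encode transporters that carry glutamine into cells. Slc38a1 had 60.8, 136, 147 and 129 CPM in progenitors and at most 9.80 CPM in astrocytes, a log2 fold change of -5.09 ± 1.14 (edgeR, adjusted p = 0.020). Its stem cell libraries had 0.205, 0, 64.7 and 8.54 CPM and were not called against progenitors. Slc38a2 exceeded its level in stem cells (33.6, 18.5, 21.1 and 33.3 CPM) in every progenitor library (68.0, 97.2, 109 and 135 CPM), by a log2 fold change of 1.90 ± 0.33 (edgeR, adjusted p = 0.0069). In astrocytes it ranged from 0 to 102 CPM. The Slc1a1 calls held in all other settings and with any library left out. With all 12 libraries in one fit, those of Slc7a11, Slc38a1 and Slc38a2 were lost (edgeR, adjusted p = 0.091, 0.090 and 0.80), and that of Slc38a1 was also lost without progenitor library b, c or d (edgeR, adjusted p between 0.056 and 0.063).

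No vesicular glutamate transporter was called. Slc17a7, which fills synaptic vesicles with glutamate in excitatory neurons, had 397 CPM in astrocyte library a and at most 29.2 CPM in any other library. Library a had the highest neuron marker sum, of which Slc17a7 is a part. Astrocytes against progenitors gave a log2 fold change of 5.49 ± 1.51 that just missed the threshold (edgeR's quasi-likelihood test, Benjamini-Hochberg adjusted p = 0.050), and without library a it was 3.01 (edgeR, adjusted p = 0.14).

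The other aminotransferases that use glutamate had calls in opposite directions between progenitors and stem cells. Gpt2, the mitochondrial alanine aminotransferase, was at 174, 187, 193 and 215 CPM in progenitors and 86.5, 73.2, 97.4 and 54.2 CPM in stem cells, higher by a log2 fold change of 1.27 ± 0.22 (edgeR's quasi-likelihood test, Benjamini-Hochberg adjusted p = 0.0066). Gpt, the cytosolic form, was lower in progenitors, at 43.1, 45.9, 41.5 and 31.3 CPM against 80.3, 60.9, 76.2 and 135 CPM, with a log2 fold change of -1.17 ± 0.31 (edgeR, adjusted p = 0.047). Oat, ornithine aminotransferase, was lower as well, at 157, 110, 146 and 155 CPM against 408, 310, 471 and 374 CPM, with a log2 fold change of -1.50 ± 0.20 (edgeR, adjusted p = 0.0020). None of these 3 overlapped between progenitors and stem cells, where 19.3% of all genes did not overlap. The call of Oat held in every setting, that of Gpt2 was lost with all 12 libraries in one fit (edgeR, adjusted p = 0.11), and that of Gpt was lost when any 1 of 7 of the 8 libraries was left out, stem cell library 2 being the exception (edgeR, adjusted p of up to 0.14). Bcat1, the cytosolic branched-chain aminotransferase, was near zero in astrocytes, with 2 counts in all 4 libraries together against 3351 in progenitors. The ratio of summed counts per scaled library size was 688, with a 95% counting interval (exact binomial) of 190 to 5685, and the gene was called (edgeR, adjusted p = 0.0060). This interval treats every read as independent and leaves out amplification and the spread between libraries.

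Of the mitochondrial carriers and the malate-aspartate shuttle, 3 of 6 tested genes were called lower in progenitors than in stem cells, beside 3.66% of all genes. Slc25a18, a mitochondrial glutamate carrier, had 139, 134, 150 and 205 CPM in progenitors and 493, 482, 573 and 338 CPM in stem cells, a log2 fold change of -1.62 ± 0.21 (edgeR's quasi-likelihood test, Benjamini-Hochberg adjusted p = 0.0020). Slc25a11, the 2-oxoglutarate carrier, had a smaller difference of -0.69 ± 0.18 (edgeR, adjusted p = 0.039), and Mdh1, the cytosolic malate dehydrogenase, one of -0.74 ± 0.17 (edgeR, adjusted p = 0.025). For all 3, progenitors and stem cells did not overlap, beside 19.3% of all genes, while astrocytes overlapped with both. The call of Slc25a18 held in every setting. That of Slc25a11 was lost without any 1 library except stem cell library 4 (edgeR, adjusted p of up to 0.12), and that of Mdh1 without progenitor library b, c or d or stem cell library 1, 2 or 3 (edgeR, adjusted p of up to 0.091). On library totals without TMM factors, where the median of all genes was 0.37, Gpt, Slc25a11 and Mdh1 had log2 fold changes of -0.86, -0.36 and -0.41 and were not called (edgeR, adjusted p = 0.15, 0.28 and 0.14). Short stretches of their exons overlap a gene on the opposite strand, covering 8.92% of Slc25a11, 1.67% of Slc25a18 and 2.03% of Mdh1. Among the enzymes that use glutamate or glutamine, Gclc was called in astrocytes against progenitors. It encodes the catalytic subunit of the first enzyme of glutathione synthesis and had 0, 1, 0 and 1 counts in astrocytes against 216, 105, 28 and 81 in progenitors (edgeR, adjusted p = 0.019), and the call was lost without progenitor library d (edgeR, adjusted p = 0.053) and without a count filter (edgeR, adjusted p = 0.11). The ratio of summed counts per scaled library size was 88.3, with a 95% counting interval of 24.3 to 732. This interval again leaves out amplification and the spread between libraries. Gclm, the partner of Gclc, was counted in every library, from 1.70 to 39.1 CPM in astrocytes and 8.17 to 19.96 CPM in progenitors.

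**Figure D5:**
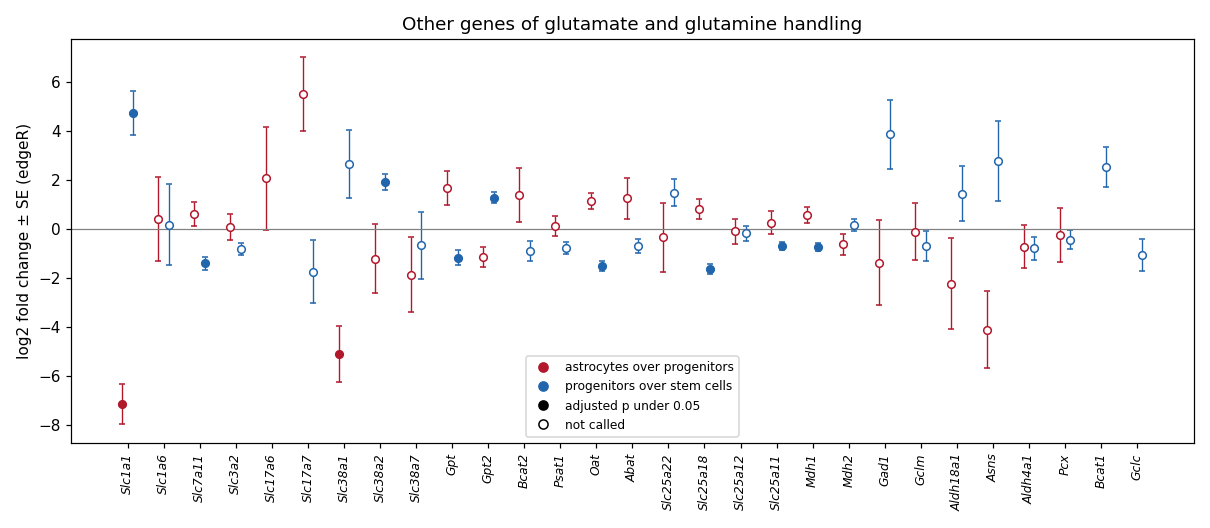
edgeR log2 fold change ± SE (vertical axis) of the other genes of glutamate and glutamine handling that were tested, in astrocytes over progenitors and progenitors over stem cells, with filled points for an adjusted p under 0.05. Bcat1 and Gclc are left out of the first comparison because astrocytes had at most 1 count per library. Slc1a1 lies at -7.14 in the first and 4.73 in the second comparison.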

How the data were processed

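RNA of 50 sorted cells per library was preamplified with the SMARTer v4 kit and made into Nextera XT libraries. The authors discarded reads from PhiX, ribosomal RNA and the mitochondrial genome. What remained was aligned by HISAT2 2.0.6 to GRCm38.p4, and featureCounts assigned it, ignoring strand, to the genes of GENCODE M14. The deposited values are raw counts, not normalized. The members and lists were chosen with earlier results of these data known. The astrocyte and progenitor columns carry no replicate number and are called a to d. Symbols, exon lengths and positions were taken from GENCODE M21 (50376 of 50600 identifiers matched).

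Pairs of cell types were compared with edgeR 4.0.16 in R 4.3.3 (TMM factors, quasi-likelihood test, 10 counts or more in 4 or more of the 8 libraries, Benjamini-Hochberg threshold of 0.05). A standard error is the absolute log2 fold change over the root of the F statistic. DESeq2 1.42.0, which the authors used after their own transcript filter CLEAR, was an alternative. CLEAR needs coverage per base and was not run. Ratios of counts used a pseudocount of 0.5 and exact permutation tests, two-sided. Near-identical copies are matches of at least 100 bases at 95% identity. The steps were tested on simulated data. Named genes are the 8 members, the listed genes called in any comparison, the gene of highest mean level in a role without a call, and the 3 genes most like each member. Gclm was added after its values were seen. Total counts of 5031166 to 12535028 per library limit the precision of low counts, and a floor of 3 counts was used. Results for some of the genes are not reported here.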

Additional observations from a re-analysis of the deposited data

Results flagged for a closer look

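Each group of 4 libraries was examined for a library far from the other 3, over the members' levels and the count ratios. Of 33 groups, 2 had such a library, and chance gives about 1 in 20. Slc38a3 stood at 67.3 CPM in astrocyte library a, against 382 to 441 CPM in the other 3 astrocyte libraries. This library also had the highest neuron and oligodendrocyte marker sums, and their part in the low value was not tested. The log2 count ratio of Got1 to Got2 was 3.65 in stem cell library 1, against 1.72 to 1.77 in the other 3 stem cell libraries. Got2 had 41 counts in library 1, and 90, 162 and 28 counts in stem cell libraries 2, 3 and 4.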

How the results depend on the processing

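No paired analysis was possible because the astrocyte and progenitor columns of the count table carry no replicate number. The number of members called in astrocytes against progenitors was 3 and became 1 on library totals without TMM factors (chosen after seeing the data), 1 with at least 10 counts in every library (7 members tested), and between 1 and 4 with 1 library left out, 1 being reached without progenitor library b, c or d. In progenitors against stem cells it was 5 and became 3 with all 12 libraries in one fit. In astrocytes against stem cells it was 0 and became 1 (Slc1a3) with the 4000 highest genes of every library (5 members tested) and 1 with all 12 libraries. Slc1a2, Slc1a3 and Glul in progenitors against stem cells, and Slc1a2 in astrocytes against progenitors, were called in all 8 other settings and all 8 fits with 1 library left out. Changes of sign were found only where no call was made, among the members' fold changes. In astrocytes against progenitors, Slc1a4 became 0.0027 after thinning to the smallest library and ranged from -0.70 to 0.33 with 1 library left out. Slc38a3 became -0.18 without TMM factors, -0.067 with at least 10 counts in every library and -0.26 with the 4000 highest genes, and Got1 ranged from -0.41 to 1.09 with 1 library left out. In progenitors against stem cells, Got1 became 0.077 without TMM factors. In astrocytes against stem cells, with 1 library left out, Got1 ranged from -0.66 to 0.81 and Got2 from -0.48 to 0.96, negative without astrocyte library c. The causes were not tested. Over all genes, the calls ranged from 254 to 2431 around 1278, from 445 to 2394 around 1327, and from 0 to 635 around 6 in the 3 comparisons, the highest being DESeq2's. The lowest counts among the members were 8 for Got2 in astrocyte library b and 10 for Slc1a4 in astrocyte library a. Neither library had the lowest total, and the cause was not tested.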
